A study of Mus musculus with 4 samples.

Results

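Genes that write, keep, oxidise and remove DNA methylation were compared between NIH3T3 cells with a deletion mutant of EGFR and NIH3T3 cells with wild-type EGFR. The 10 genes are the DNA methyltransferases Dnmt1, Dnmt3a and Dnmt3b, the maintenance factor Uhrf1, the dioxygenases Tet1, Tet2 and Tet3, the glycosylases Tdg and Mbd4, and the deaminase Apobec1. They were found by the gene name that the array design gives each probe, which yielded 21 of the 55681 probes on the array. A probe was tested if both arrays of one group or the other read it well above background, which held for 20 of the 21, and every one of the 10 genes had such a probe. The whole table tested held 18093 features, which are gene names or unnamed probes.

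NIH3T3 is an immortalised line of mouse embryonic fibroblasts, and EGFR is the receptor tyrosine kinase for epidermal growth factor. The wild-type group (genotype Wild Type EGFR) and the mutant group (genotype Deletion Mutant EGFR) had 2 arrays each, both at steady state with no treatment named. Per the labels the cDNA of each sample was made in independent experiments, but separate cultures or clones are not mentioned, so the p-values here cover the spread of these arrays alone and that spread may be technical. How much of the receptor is deleted, its species and its promoter are not in the labels, and parental cells without an introduced receptor are not among the samples. The arrays were 1-colour Agilent arrays read as Cy3 brightness, and they shared 1 slide, each group in a column of its own, so that column and group cannot be told apart.

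Methylation of cytosine in CpG pairs is laid down on unmethylated DNA chiefly by Dnmt3a and Dnmt3b, and is copied onto the new strand after replication by Dnmt1, which Uhrf1 brings to hemimethylated sites. The Tet enzymes oxidise the methyl group. Tdg excises the more oxidised bases and mismatched thymine, Mbd4 excises thymine and uracil from mismatches at CpG sites, and base excision repair fills in an unmodified cytosine. Apobec1 is known first for editing the messenger RNA of apolipoprotein B, and it can deaminate cytosine in DNA in test systems. Dnmt1 and Uhrf1 are known to be expressed with the replication genes in dividing cells.

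Messenger RNA of the maintenance pair, Dnmt1 and Uhrf1, rose in deletion-mutant cells together with Apobec1, and messenger RNA of Tet1 fell. Uhrf1 was 2.25-fold higher, Apobec1 2.14-fold and Dnmt1 1.93-fold, while Tet1 was 2.34-fold lower (n = 2 arrays per group). Smaller differences that passed the test were a rise of Tdg and falls of Mbd4, Dnmt3a and Tet2, none of them above 1.37-fold. Dnmt3b and Tet3 did not pass. In bulk RNA, more cells that express a gene and more RNA per cell cannot be told apart. In counts, 4 of the 10 genes were higher, 4 were lower and 2 did not pass an adjusted p of 0.05 (limma, Benjamini and Hochberg over all 18093 features). Among all features 34.6% were higher and 24.2% lower by the same rule, 58.8% in either direction, so that a passed test is common on these arrays and the count says little about the 10 genes as a group. At least 2-fold higher were 2 of the 10, against 5.94% of all features, and at least 2-fold lower was 1 of the 10, against 7.46%. The median change of the 10 genes was -0.02 (log2) and that of all features 0.07. Leaving out wild-type replicate 1 or 2 gave log2 fold changes of 0.88 and 1.01 for Dnmt1 and 1.15 and 1.19 for Uhrf1. The values were 1.18 and 1.01 for Apobec1 and -1.29 and -1.15 for Tet1. Such a fit has 1 array in the wild-type group.

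**Figure D1:**
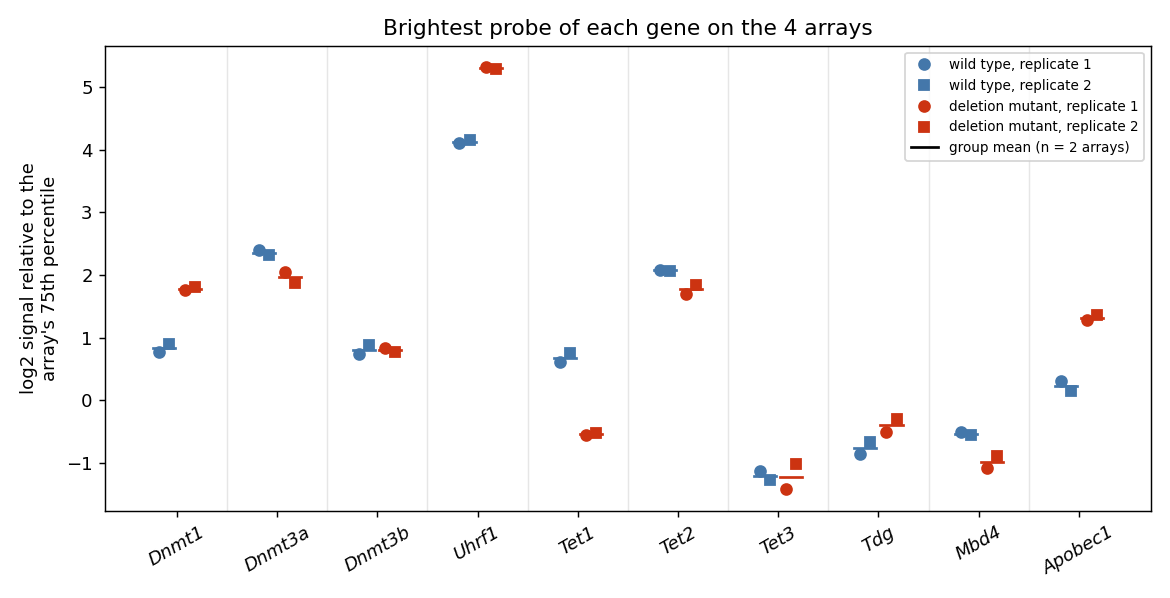
Level of each gene on the 4 arrays, as the log2 signal of its brightest probe minus the 75th percentile of that array; circles and squares are the arrays, lines the group means of n = 2. The groups stand clear of each other for Uhrf1, Apobec1, Dnmt1 and Tet1, and they overlap for Dnmt3b and Tet3; heights of different genes come from different probes and are not comparable.

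The genome sequence just before a start of transcription was searched for the letters TTTGGCGC, TTTCCCGC, TTTGGCGG and TTTCGCGC, forms of the motif of E2F factors, on both strands of the 250 bases before each RefSeq start (GRCm38.p6). All 10 genes matched the RefSeq table, with 15 start sites among them, some of which overlap. A match was present in 2 of the 15 windows, at Dnmt1 and at Uhrf1, against 1.96% of all 32851 windows. Each form of the motif holds a CG, and that share was not matched for CpG content. The matching windows held 26 CpG pairs at Dnmt1 and 30 at Uhrf1, against a median of 6 over all windows. Both matches had the letters TTTCGCGC, on the minus strand of the gene at Dnmt1 and on its plus strand at Uhrf1, and neither overlapped a match to GGGCGG, the Sp1 letters. They are shown because both genes rose, in 30 bases each with the match in capitals. The Dnmt1 stretch (chr9:20952824-20952853, minus strand) lies past other listed starts of the gene and may be transcribed. The Uhrf1 stretch is at chr17:56304117-56304146 (plus strand).
Dnmt1: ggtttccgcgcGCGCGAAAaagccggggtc
Uhrf1: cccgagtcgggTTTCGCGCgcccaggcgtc
A match describes letters only, and binding at these sites was not measured.

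The Sp1 letters GGGCGG were common, with a match in 11 of the 15 windows and in 32.7% of all windows. They also hold a CG, and that share was not matched for CpG content either. CpG pairs were counted because promoters rich in them are the ones where methylation is usually studied. The window of Tet2 held 51 CpG pairs in 250 bases, more than 99.9% of all windows, and that of Apobec1 held 7, close to the median of 6. The windows of Uhrf1 and Tet1, the largest rise and the largest fall, are printed whole, with capitals for the E2F-type letters, which are in the former and not in the latter. The Uhrf1 window before its second listed start is at chr17:56304063-56304312 (plus strand) and holds 30 CpG pairs. That of Tet1 is at chr10:62887325-62887574 (minus strand) and holds 15.
Uhrf1: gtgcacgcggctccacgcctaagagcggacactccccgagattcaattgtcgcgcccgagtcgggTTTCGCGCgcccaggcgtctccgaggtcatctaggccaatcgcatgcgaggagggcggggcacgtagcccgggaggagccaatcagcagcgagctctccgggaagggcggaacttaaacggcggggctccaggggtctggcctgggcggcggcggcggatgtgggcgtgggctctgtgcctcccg
Tet1: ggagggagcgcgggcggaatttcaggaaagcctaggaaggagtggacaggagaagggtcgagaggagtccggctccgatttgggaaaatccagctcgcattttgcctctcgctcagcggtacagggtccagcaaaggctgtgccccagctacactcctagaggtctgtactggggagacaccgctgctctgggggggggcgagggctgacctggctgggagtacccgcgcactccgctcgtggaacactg

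Dnmt1, the methyltransferase that copies methylation at replication, was read by 1 probe (chromosome 9, 20711973 to 20712341, minus strand, mm9), whose bases are spread over a longer stretch of the genome than the probe itself. Its level relative to the 75th percentile of each array was 0.77 and 0.90 (log2) in wild-type cells and 1.76 and 1.81 in deletion-mutant cells. Both mutant arrays stood above both wild-type arrays, by far more than the distance within either group. The log2 fold change was 0.95 ± 0.071 (SE, limma adjusted p = 0.00126).

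Uhrf1, which recognises hemimethylated CpG sites and carries a ubiquitin ligase domain, had 2 probes. The brighter one (chromosome 17, 56462770 to 56462829, plus strand) read 4.11 and 4.15 (log2) in wild-type and 5.32 and 5.28 in deletion-mutant cells. Its processed brightness, before scaling to the array, went from 5964 and 6497 to 13060 and 13697 intensity units, without saturation. The groups did not overlap, and the log2 fold change was 1.17 ± 0.057 (SE, adjusted p = 0.000554). The second probe (56451668 to 56452321), designed on another transcript variant, was dim, with 55.7 and 70.0 units in wild-type and 154 and 186 in mutant cells. It moved the same way, by 1.51 ± 0.12 (log2, adjusted p = 0.00172 with every probe as a feature).

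The methyltransferases of unmethylated DNA did not share that rise. Dnmt3a, read by 1 probe (chromosome 12, 3914320 to 3914379), had 2.40 and 2.32 (log2) in wild-type and 2.05 and 1.87 in deletion-mutant cells. Both mutant arrays lay below both wild-type arrays, and the fall was -0.40 ± 0.086 (log2, SE; adjusted p = 0.0190). Its call was lost without either wild-type array (adjusted p = 0.0956 and 0.0677) and under median scaling (-0.22, adjusted p = 0.0762). Dnmt3b had 0.74 and 0.88 in wild-type and 0.83 and 0.77 in mutant cells, so the groups overlapped. Its difference was -0.01 ± 0.076 with a 95% interval from -0.22 to 0.20 (log2, limma adjusted p = 0.911). The other Dnmt3b probes, also on chromosome 2, gave 0.01 and 0.04. Other scalings placed the value between -0.21 and 0.17 without a call.

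Tet1, the dioxygenase best known from embryonic stem cells and the germ line, was lower on all of its 3 probes. The brightest (chromosome 10, 62274448 to 62274507, minus strand, mm9) read 0.61 and 0.75 (log2) in wild-type and -0.56 and -0.52 in deletion-mutant cells. In processed brightness before scaling these were 527 and 617 units against 222 and 245. No array of one group reached the other, and the log2 fold change was -1.22 ± 0.073 (SE, limma adjusted p = 0.000783). With every probe as a feature, the probe at 62276042 to 62276101 fell by 0.68 (-0.70 and -0.82 against -1.47 and -1.41) and the one at 62301856 to 62301915 by 1.18 (-1.23 and -1.58 against -2.36 and -2.82), with limma adjusted p-values of 0.00341 and 0.0117. Over the 20 tested probes of the 10 genes, 4 were higher, 6 were lower and 10 did not pass. By that rule 32.6% of all probes tested were higher and 24.1% lower, 56.7% in either direction. The probes are shown by their first 30 bases because all 3 point the same way while lying some distance apart, in the order of these values.
Tet1 probe at 62274448: ctgtactcaaataacacacggcttctgttc
Tet1 probe at 62276042: gaatctacagacttctgtcccctgcaggct
Tet1 probe at 62301856: taatcacatcaacgccgaggtcaggaatgc
The last of these was designed on a different transcript variant from the other two and was the dimmest, between 49.9 and 147 units.

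Tet2, the family member often mutated in human blood cancers, was slightly lower. Its brightest probe (chromosome 3, 133126751 to 133126810) had 2.09 and 2.06 (log2) in wild-type and 1.70 and 1.84 in deletion-mutant cells, without overlap. The fall was -0.30 ± 0.074 (SE, adjusted p = 0.0268), and it did not pass under median scaling (-0.12, adjusted p = 0.266), spike-in scaling (-0.22, adjusted p = 0.0710) or without 3 of the 4 arrays in turn. Both other Tet2 probes were lower in the mutant arrays as well (-0.26 and -0.47) without passing. Tet3 was dim and scattered, with -1.13 and -1.28 in wild-type and -1.42 and -1.02 in mutant cells, which overlap. Its difference was -0.02 with a 95% interval from -0.45 to 0.41 (log2, limma adjusted p = 0.917). The values leave room for a change anywhere within that interval. A second Tet3 probe gave 0.32 (adjusted p = 0.179) and the third was not well above background on any array.

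**Figure D2:**
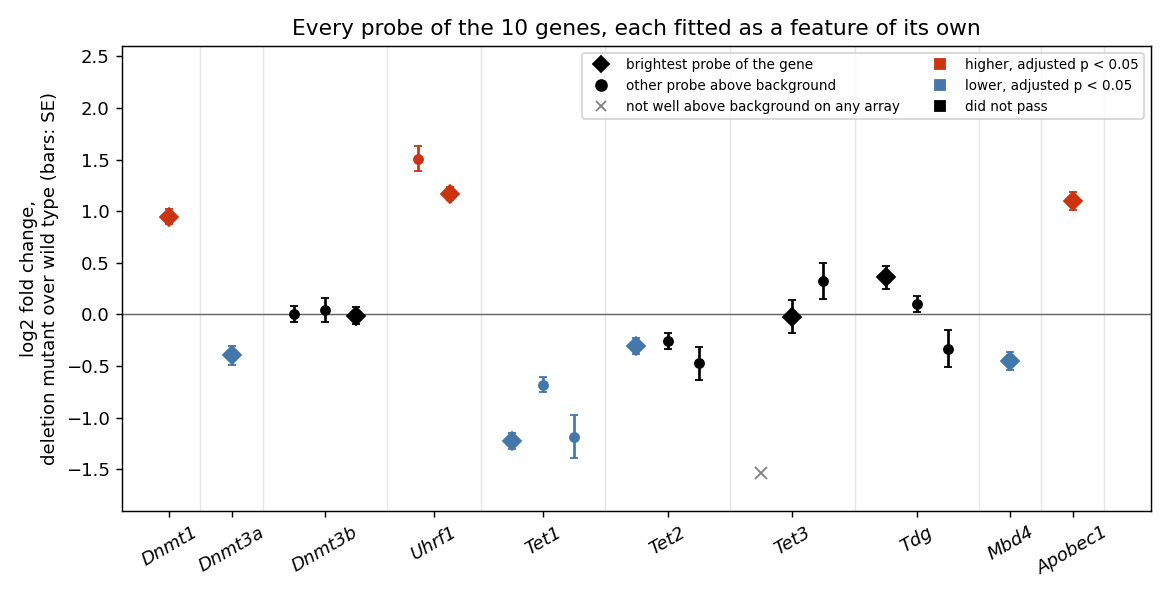
Change of each of the 20 tested probes (log2 fold change, deletion mutant over wild type) with its SE, each probe fitted as a feature; diamonds mark the brightest probe of a gene. The 3 Tet1 probes and both Uhrf1 probes agree in direction, while the Tdg probes run from 0.36 to -0.33; the cross is the difference of group means, without a fit or SE, of the Tet3 probe that was not well above background.

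The glycosylases changed little, Mbd4 downward and Tdg without agreement among its probes. Mbd4 (1 probe, chromosome 6, 115792515 to 115792574) had -0.51 and -0.56 (log2) in wild-type and -1.07 and -0.89 in deletion-mutant cells. Its groups did not overlap, and it fell by 0.45 ± 0.084 (SE, adjusted p = 0.0124), a call that was lost without either wild-type array (adjusted p = 0.0704 and 0.0582) and under median scaling (adjusted p = 0.0659). Tdg, which is essential for mouse development, had -0.85 and -0.66 in wild-type and -0.50 and -0.30 in mutant cells on its brightest probe. The rise was 0.36 ± 0.11 (log2, SE; adjusted p = 0.0488), just inside the threshold. Its probes disagreed, since the others gave 0.10 and -0.33, and the mean of the 3 probes changed by 0.04 (adjusted p = 0.749). With every probe as a feature the brightest Tdg probe did not pass either (adjusted p = 0.0546), nor did the gene without 3 of the 4 arrays in turn (adjusted p between 0.068 and 0.182).

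Apobec1, the deaminase, was read by 1 probe (chromosome 6, 122527908 to 122527967, minus strand). It had 0.31 and 0.14 (log2) in wild-type and 1.28 and 1.37 in deletion-mutant cells. Its processed brightness before scaling was 426 and 405 against 791 and 907 units. Both mutant arrays were above both wild-type arrays, and the log2 fold change was 1.09 ± 0.084 (SE, adjusted p = 0.00131). Over the 10 genes, groups did not overlap for 4 that were higher and 4 that were lower, against 46.4% and 35.3% of all features.

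**Figure D3:**
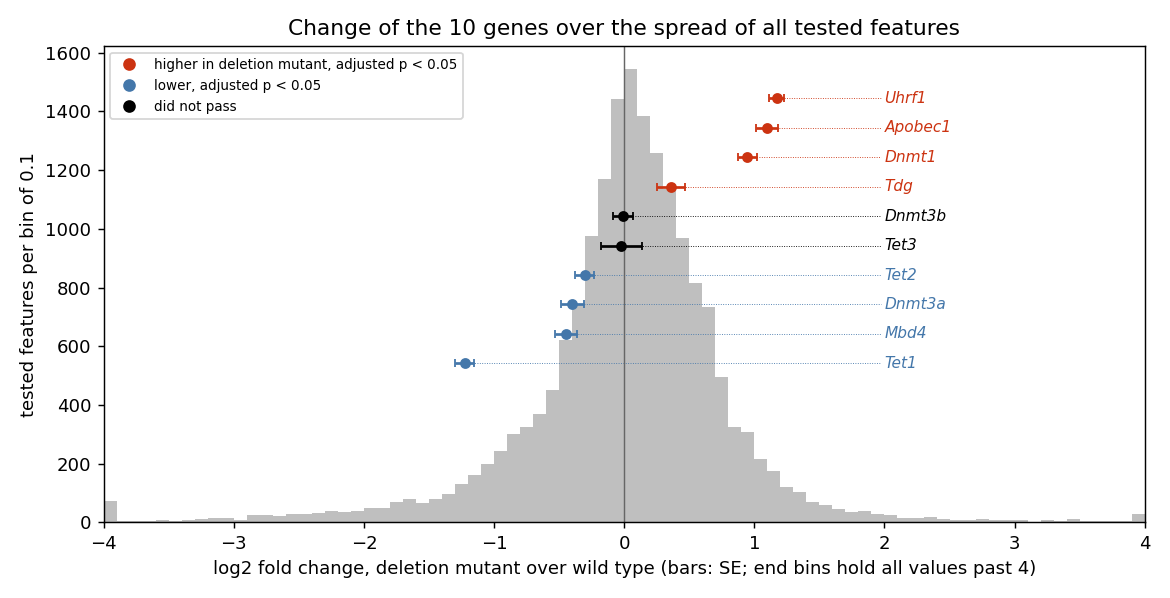
Log2 fold changes of the 10 genes with their SE (points, placed at arbitrary heights) over the distribution of all 18093 features (grey bars, features per bin). Uhrf1, Apobec1, Dnmt1 and Tet1 lie further from the centre of the distribution than the other 6. By size of change they are at percentiles 84.6 to 90.8, well inside its edges.

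Placed among all features by the size of change in either direction, Tet1 was at percentile 90.8, Uhrf1 at 89.9, Apobec1 at 88.4 and Dnmt1 at 84.6. The other 6 lay between percentiles 1.83 (Dnmt3b) and 57.9 (Mbd4). The named genes with the pattern nearest to Uhrf1 over the 4 arrays, by the Euclidean distance of centred log2 values, were Dbr1 (0.012), 5730416F02Rik (0.023) and Mcm2 (0.024). For Tet1 they were Pik3r1 (0.033), Col5a1 (0.040) and Lynx1 (0.041). With 4 arrays in 2 groups such nearness reflects little more than a fold change of equal size, and 11962 named genes were compared.

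Fibroblast markers were well above background on all arrays for 10 of 10 genes, among them Col1a1, Vim and Thy1. The log2 of their summed signal was 11.3 on both wild-type arrays and 10.7 on both deletion-mutant arrays. Of the 10 genes 8 were lower, against 24.2% of all features, and 1 did not pass. Vim was higher by 0.23 (log2, limma adjusted p = 0.0448), and 34.6% of all features were higher. The call of Vim was lost with the percentile over detected probes, with no filter on dim probes and with every probe as a feature. Of 8 markers of pluripotent cells, where Tet1 and Dnmt3b are known to be abundant, 5 were not well above background on any array. These were Pou5f1, Sox2, Zfp42, Dppa3 and Dppa4. Dppa5a was above background on 1 mutant array. Nanog and Lin28a were above it on all 4, and their brightest probes did not pass the test. With the mean of a gene's probes, 1 of these 2 genes was lower and their median was -0.72 (log2). Lin28a has 1 probe, at -0.003, so the lower gene was Nanog, which has 3 probes. Epithelial markers were at background in 5 of 6 cases, Krt8 being above it on the mutant arrays only. Of the leukocyte markers Ptprc and Lyz2 were not above background on any array. Itgam was above it on all 4, and the brightest of its 3 probes was lower in mutant cells by 0.92 (log2). Cd3e was above it on all 4 without passing, and Cd79a was above it on the wild-type arrays only. With the mean of a gene's probes, 0 of these leukocyte markers were lower. Of the endothelial markers, Cdh5 and Tie1 were at background, Kdr gave -0.03 and Pecam1 fell by 0.40, a call lost under quantile normalization. The share of probes above background was between 42.9% and 46.9% per array, and no spot was saturated.

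Replication genes moved with Dnmt1 and Uhrf1. All 19 measured members of a 20-gene S phase list were higher in deletion-mutant cells (34.6% of all features were), 15 of them by at least 2-fold, and their median change was 1.25 (log2) against 0.07 for all features. The licensing factor Cdc6 rose 3.41-fold, the helicase component Cdc45 3.38-fold, the ribonucleotide reductase subunit Rrm2 2.82-fold and Gins1, of the GINS helicase complex, 2.69-fold. The log2 of their summed signal was 7.73 and 7.75 on wild-type arrays and 8.92 and 8.93 on mutant arrays, while Ccne2 was not above background on any array. Uhrf1 at 1.17 and Dnmt1 at 0.95 lay within the range of that list, from 0.47 (Tyms) to 1.77 (Cdc6). The part of replication or cell number in S phase in the values of Dnmt1 and Uhrf1 was not tested.

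Messenger RNA of proteins that work with the DNA methyltransferases was higher in 7 of 11 measured cases and lower in none. Among all features 34.6% were higher and 24.2% lower. The median change of the list was 0.44 (log2). Pcna, the sliding clamp that also binds Dnmt1, rose 2.21-fold and belongs to the S phase list as well. Hells, a chromatin remodeller needed for normal methylation, rose 2.11-fold, its activator Cdca7 2.10-fold and the Uhrf1 relative Uhrf2 1.65-fold. The deubiquitinase Usp7, Trim28 and Ehmt1 made up the rest, and Dnmt3l, the inactive cofactor of Dnmt3a and Dnmt3b, gave 0.43 (log2) without passing (adjusted p = 0.130). The count was between 5 and 10 under other scalings. Of 7 genes from families of methyl-CpG binding proteins, Mbd3 (1.36-fold) and Mbd2 (1.28-fold) passed, upward, and 5 did not. That share of higher genes, 28.6%, was below the 34.6% of all features. The median of these 7 genes was 0.09 (log2), against 0.07 for all features. For these 7 genes the scaling mattered more, with 0 higher and 1 lower under quantile normalization and 4 higher under median scaling.

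Base excision repair, which completes demethylation after Tdg, was higher in 6 of 9 measured genes and lower in none (5 to 7 higher under other scalings), against 34.6% and 24.2% of all features. The median of the list was 0.50 (log2). Parp1, a sensor of strand breaks, rose 1.62-fold, the uracil glycosylase Ung 1.53-fold, the endonuclease Apex1 by 0.58 (log2) and the scaffold Xrcc1 1.43-fold. No gene of this list reached a 2-fold change. Of the other APOBEC genes, Apobec2 and Apobec4 were not well above background on any array. Apobec3 gave -0.06 (log2) on the brightest of its 3 probes, without passing. The genes of the stress-induced GADD45 proteins, which have been linked to active demethylation, split. Gadd45a was 0.42 and 0.43 (log2) in wild-type and 2.05 and 1.91 in mutant cells, a rise of 2.94-fold. Gadd45b went from 2.71 and 2.68 to 0.81 and 0.58, a fall of 3.99-fold. Gadd45g fell by 0.27 (log2), and the list had 1 lower gene in place of 2 under median or spike-in scaling and without 3 of the 4 arrays in turn. It had 3 lower genes, Apobec3 among them, under quantile normalization, with the percentile over detected probes and with the mean of a gene's probes. With that mean the list median was -0.51 (log2), against -0.16 with the brightest probes.

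Messenger RNA of enzymes of the methyl donor cycle was higher in 4 of 10 measured cases and lower in 1. The share of higher genes was near the 34.6% of all features, and the median was 0.14 (log2). With the mean of a gene's probes 2 were higher and 1 was lower. Ahcy and Ahcyl2 have 3 probes each, and the values given here are those of the brightest. Ahcy, which clears the methylation inhibitor S-adenosylhomocysteine, rose 2.32-fold, from 0.56 and 0.64 (log2) in wild-type to 1.77 and 1.85 in mutant cells. Mthfd1, of the folate cycle, rose 1.84-fold and Ahcyl2 1.31-fold, while Mat2b, the regulatory subunit of methionine adenosyltransferase, fell by 0.31 (log2). Its catalytic partner Mat2a gave -0.01 and did not pass. This split depended on scaling, with 5 higher and 0 lower under median scaling and 2 higher and 4 lower when the percentile was taken over detected probes, and without wild-type replicate 2 it was 2 higher and 0 lower.

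Genes that set the supply or inhibition of Tet activity gave 4 higher and 2 lower among 8 measured, with a median of 0.18 (log2). The share of lower genes was near the 24.2% of all features, and 34.6% of all features were higher. The isocitrate dehydrogenase Idh1, a source of the Tet cofactor 2-oxoglutarate in the cytosol, fell by 0.76 (log2), while its mitochondrial counterpart Idh2 rose by 0.40. D2hgdh, a dehydrogenase of the competing metabolite 2-hydroxyglutarate, was 1.39-fold lower. Sdhb, of succinate dehydrogenase, rose 1.66-fold. Without either wild-type array 1 gene of this list was lower in place of 2, while 4 were lower with the percentile over detected probes and 3 with the mean of a gene's probes. Germline genes whose silencing in mouse somatic cells depends on methylation were mostly undetected: 12 of 16 were not well above background on any array, among them Dazl, Ddx4 and Mael. Of the 3 measured, Rhox5 (-0.03) and Taf7l (-0.11) did not pass and Sycp1 rose 1.58-fold, from a dim -2.21 and -2.38 to -1.44 and -1.82 (log2); Sycp1 did not pass when the percentile was taken over detected probes or without either wild-type array.

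**Figure D4:**
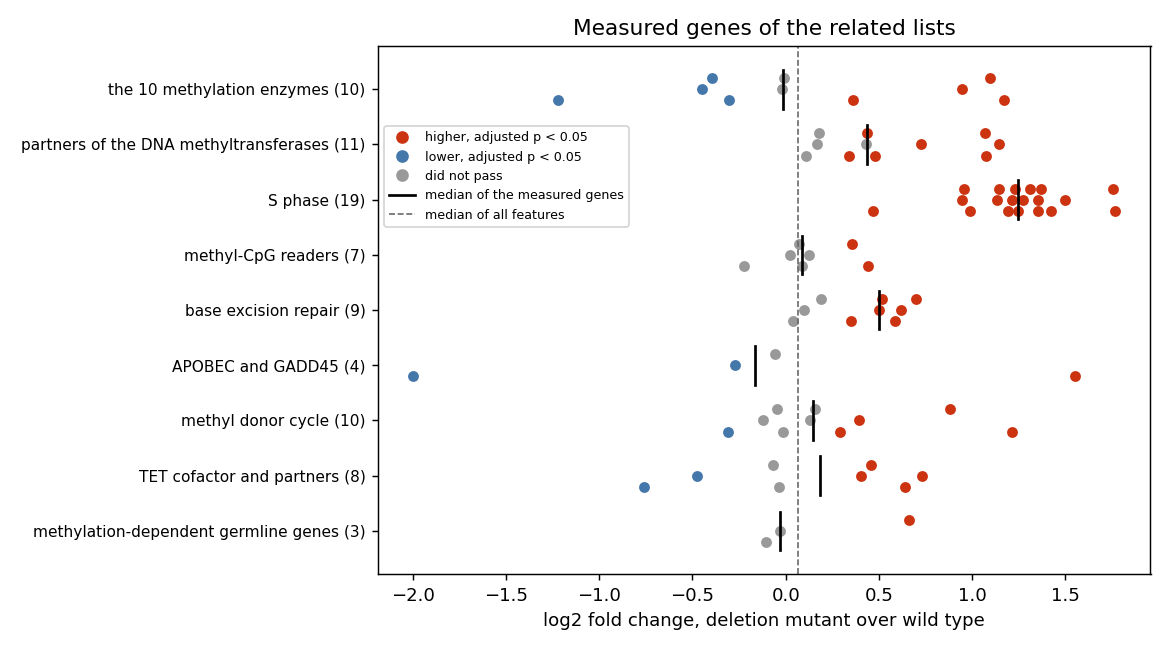
Log2 fold changes of the measured genes in each list (number in brackets), with the list median as a black bar and the median of all features, 0.07, as a dashed line. The S phase list lies wholly to the right, the 10 methylation enzymes spread to both sides, and Gadd45a and Gadd45b sit at opposite ends of their list.

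Across 16 alternatives of processing, the 4 genes Dnmt1, Uhrf1, Apobec1 and Tet1 kept their call in each. Dnmt1 ranged from 0.75 to 1.13 (log2), Uhrf1 from 0.94 to 1.35, Apobec1 from 0.90 to 1.28 and Tet1 from -1.42 to -0.99. Dnmt3a, Tet2, Mbd4 and Tdg each lost their call under at least 5 alternatives, and no called gene turned direction under any of them. Over these alternatives the median of all features shifted between -0.19 and 0.18 (log2). The split of all called features also depended on scaling, with 58.9% higher here, 73.5% under median scaling and 38.9% with the percentile over detected probes.

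**Figure D5:**
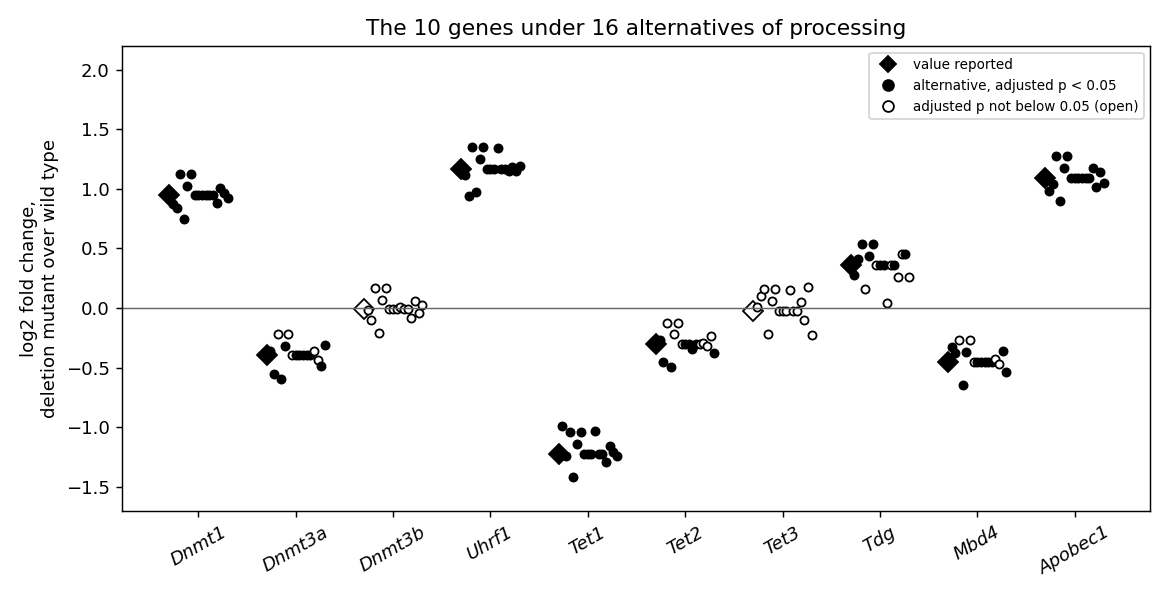
Log2 fold change of each gene as reported (diamonds) and under the 16 alternatives (circles), filled where the adjusted p was below 0.05 and open where it was not. Dnmt1, Uhrf1, Apobec1 and Tet1 are filled throughout, and Tdg, Tet2, Dnmt3a and Mbd4 each have open circles.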

How the data were processed

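The text files deposited by the authors give spot intensity, made per the file headers with Feature Extraction 10.10.1.1 (protocol GE1_1010_Sep10, spatial and multiplicative detrending switched on, probe positions on mm9). The deposited matrix of log2 values differs from log2 of that signal by a fixed amount on each array (100% of probes to within 0.01). Spots marked uneven or outlying and control spots were left out, and 11 probes were lost. The log2 processed signal minus each array's 75th percentile was used. A probe was kept if both arrays of either group were well above background (25162 probes), and a gene is its brightest such probe. Groups were compared with limma 3.58.1 (lmFit, eBayes, R 4.3.3; 2 residual degrees of freedom), adjusted over 18093 features at 0.05, after a test on simulated data. The members, lists, naming rule (all 10 genes, up to 4 genes per list by size of change) and alternatives were chosen with earlier results of these data known. Some genes of the related lists are not reported here by name. Exon or untranslated position of probes was not analysed here. The number of arrays limits the precision.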

Additional observations from a re-analysis of the deposited data

How the results depend on the processing

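Under 16 alternatives the 8 called genes gave 128 values, of which 103 kept call and direction, 25 lost the call and 0 changed sign. Dnmt3b and Tet3, which were not called, gave 32 values, of which 14 changed sign and 0 passed. The number of the 10 genes called was 8 here, where 10631 of all 18093 features were called (58.8%). It was 5 under median scaling and with the authors' log2 values, where 11836 and 11833 of all 18093 features were called. It was 4 with no filter on dim probes, where 34816 features were tested and 6466 called. Leaving out 1 array gave 4 to 7 called, with 4 without either wild-type array; such a fit has 1 array in a group and takes its spread from the other. For the related lists 48 of 70 genes were called here and 39 to 47 without 1 array, and all features called were 7815 to 9561. With the replicate number as a block, 7 of the 10 genes were called, Tet2 being lost (adjusted p = 0.0511), and 9990 features. The labels share replicate numbers, but the correlation of replicate differences between groups was 0.047, so the numbers were not taken as pairs. Less than 50% of probes were above background, so dim probes such as those of Tet3 limit what can be seen, and slide as a block could not be fitted with 1 slide.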
